A study of Homo sapiens with 2 samples.

Results

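Azurophil granules are the primary granules of neutrophils, packed during the promyelocyte stage with a peroxidase, serine proteases and other antimicrobial proteins. Their 10 genes followed here were found by symbol in the expression table of HL60-EIF2S3 cells, among 58302 listed genes, and each symbol had 1 row. They are the serine protease genes ELANE, CTSG, PRTN3 and PRSS57, the inactive protease homologue AZU1, the myeloperoxidase gene MPO, the lysozyme gene LYZ, the ribonuclease genes RNASE2 and RNASE3, and SERPINB1, which encodes a cytosolic inhibitor of these proteases. HL60 is an established acute myeloid leukemia line of promyelocytic character, and HL60-EIF2S3 is a derivative that carries a Tet-Off EIF2S3 transgene. Doxycycline (DOX) shuts such a transgene off. The library labelled DOX(-) comes from untreated cells, the library labelled DOX(+) from cells given doxycycline, and both carry the transgene. The study compared them to ask what raised EIF2S3 does to the growth of these cells. EIF2S3 encodes the gamma subunit of eIF2, which brings the initiator tRNA to the ribosome. The sources used here give neither the doxycycline dose nor the time of treatment, nor whether the line is 1 clone. Cells that lack the transgene were not analysed here.

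In a promyelocyte, the transcription factors C/EBP alpha, PU.1, MYB and RUNX1 drive the granule genes. The proteases are made as inactive precursors, trimmed to their active form by cathepsin C, and packed onto the proteoglycan serglycin. Myeloperoxidase folds with the help of the chaperones calreticulin and calnexin, takes up heme, and makes hypochlorous acid from hydrogen peroxide. Granule protein genes are switched off as neutrophils mature, so mature neutrophils carry these proteins with little of the RNA.

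Each condition had 1 library, so no spread between cultures could be estimated and no p-value was made. The libraries held 16577788 fragments in DOX(-) and 18519439 in DOX(+), as recovered from the values, so that 1 FPKM (fragments per kb of transcript, scaled to library size) stood for 16.6 and 18.5 fragments per kb. In each pair of values below DOX(-) comes first. The transgene's own gene did not follow the labels: EIF2S3 stood at 132.9 and 126.2 FPKM, a ratio of 1.05 (95% interval from counting error, 0.927 to 1.196), so the conditions are named as the labels give them. Every interval given here covers counting error only. Of 12 promyelocyte markers, 5 of them among the 10 genes, all but KIT and MPO reached 1 FPKM. Of 10 markers of mature neutrophils 4 reached 1 FPKM, and FCGR3B, CXCR1 and MMP9 were listed at 0 in both libraries. That list summed to 28.6 and 42.2 FPKM, and 8 erythroid markers, of which HBB was listed at 0 and 4 reached 1 FPKM, to 10.1 and 17.4 FPKM. Both sums were higher in DOX(+), the neutrophil sum mostly through S100A9 (19.8 and 32.0 FPKM). Of the other neutrophil markers that reached 1 FPKM, S100A8 (0.0887 and 1.59 FPKM) and CXCR2 (4.49 and 5.00 FPKM) were also higher in DOX(+). CSF3R was higher in DOX(-), at 3.28 and 2.75 FPKM. The sum of the promyelocyte markers, 5 of them among the 10 genes, was higher in DOX(-) (1623 and 1368 FPKM). Most of it came from CTSG and ELANE, so its direction restates the 10 genes. The highest markers outside the 10 were CEBPA (151.4 and 169.6 FPKM), GFI1 (60.7 and 57.4 FPKM) and MYB (39.96 and 40.1 FPKM). Of these, CEBPA was higher in DOX(+), GFI1 in DOX(-), and MYB was nearly equal. Also higher in DOX(-) were the sums of monocyte and macrophage (24.5 and 20.9 FPKM), mast cell and basophil (13.4 and 7.495 FPKM) and lymphocyte markers (2.40 and 1.59 FPKM). The sums of megakaryocyte (1.44 and 1.69 FPKM) and of epithelial and fibroblast markers (0.0186 and 0.0458 FPKM) were higher in DOX(+). The part of these cell type markers in the results below was not tested. None of 6 eosinophil markers reached 1 FPKM, with EPX, CLC and IL5RA listed at 0, and the list summed to 0.296 and 0.311 FPKM. Since these are bulk cells, fewer cells of a type and less RNA per cell cannot be told apart.

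Promoter sequences from RefSeq (GRCh38.p14) were matched for 7 of the 10 genes: CTSG, PRTN3, AZU1, PRSS57, RNASE2, RNASE3 and SERPINB1. The windows are the 250 bases before the annotated start. Those of 3 highly expressed protease family genes and of PRSS57, which was under 1 FPKM, are shown to set genes of 1 family with unlike levels side by side. They lie at chr14:24576251-24576500 (minus strand), chr19:840749-840998 and chr19:827587-827836 (plus strand) and chr19:695453-695702 (minus strand). Capitals mark matches on either strand to AGGAAG (the core bound by PU.1 and other ETS factors), TATAA (TATA box), AACTG (MYB), TTNNGNAA (C/EBP) and TGTGGT (RUNX).
CTSG: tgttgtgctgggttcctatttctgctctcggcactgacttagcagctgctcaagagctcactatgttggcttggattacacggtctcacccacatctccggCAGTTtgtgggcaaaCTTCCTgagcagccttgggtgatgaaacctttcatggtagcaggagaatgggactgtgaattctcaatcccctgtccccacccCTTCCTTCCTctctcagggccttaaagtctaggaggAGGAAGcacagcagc
PRTN3: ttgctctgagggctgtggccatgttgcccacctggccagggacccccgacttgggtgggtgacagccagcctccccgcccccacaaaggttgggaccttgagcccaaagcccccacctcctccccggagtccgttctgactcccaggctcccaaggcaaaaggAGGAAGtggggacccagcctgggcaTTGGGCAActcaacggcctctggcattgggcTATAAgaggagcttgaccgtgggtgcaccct
AZU1: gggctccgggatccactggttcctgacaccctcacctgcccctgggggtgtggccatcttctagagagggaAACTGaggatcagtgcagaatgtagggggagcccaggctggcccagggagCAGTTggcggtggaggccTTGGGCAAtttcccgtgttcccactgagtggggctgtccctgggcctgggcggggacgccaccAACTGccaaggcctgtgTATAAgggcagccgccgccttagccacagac
PRSS57: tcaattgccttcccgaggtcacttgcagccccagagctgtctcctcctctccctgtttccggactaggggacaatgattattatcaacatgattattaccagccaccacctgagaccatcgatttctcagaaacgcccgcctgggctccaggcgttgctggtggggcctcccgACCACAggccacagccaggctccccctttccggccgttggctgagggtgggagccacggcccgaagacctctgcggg

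The PRTN3 and AZU1 windows each held TATAA from base -31 to base -27, counted back from the start, and each held the C/EBP match TTGGGCAA, at -62 to -55 in PRTN3 and at -111 to -104 in AZU1. AGGAAG was found in 2 of the 7 windows, those of CTSG (4 matches, of which a pair overlap) and PRTN3 (1 match). It was found in 28.7% of all 35116 promoter windows of this length. TATAA was in 4 of the 7 and in 18.9% of all, AACTG in 5 of the 7 and in 34.1% of all, and TTNNGNAA in 4 of the 7 and in 33.2% of all. PRSS57 held only TGTGGT, found in 1 of the 7 windows and in 11.0% of all. No match overlapped a match of a different motif. A match describes letters, not a bound site. The RNASE2 match to TATAA lay on the opposite strand at -218 to -214, and RNASE3 had none. RNASE2 and RNASE3, counted as separate windows for AACTG and TTNNGNAA, are close copies. The motifs were chosen with these promoters in view, so the counts beside the shares of all windows are no result about these genes.

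The windows of the ribonuclease pair, RNASE2 at chr14:20955237-20955486 and RNASE3 at chr14:20891135-20891384 (both on the plus strand), are shown because they are nearly identical where their bases pair. The levels of the genes differed, and the part of the windows in that was not tested. Capitals mark bases that differ between them, or have no partner, within their aligned part.
RNASE2: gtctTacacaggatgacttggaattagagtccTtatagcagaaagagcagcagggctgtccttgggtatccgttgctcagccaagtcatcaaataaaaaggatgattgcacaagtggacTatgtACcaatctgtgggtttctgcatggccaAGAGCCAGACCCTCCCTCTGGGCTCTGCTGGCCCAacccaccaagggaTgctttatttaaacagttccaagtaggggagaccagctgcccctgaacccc
RNASE3: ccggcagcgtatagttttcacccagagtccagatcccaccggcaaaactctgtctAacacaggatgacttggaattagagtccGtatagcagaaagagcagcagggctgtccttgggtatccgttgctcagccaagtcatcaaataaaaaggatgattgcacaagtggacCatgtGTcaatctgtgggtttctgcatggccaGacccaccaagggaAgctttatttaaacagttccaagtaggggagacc

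Over the 300-base windows that run 50 bases past each start, 249 positions could be paired and 242 of them (97.2%) were identical. RNASE2 holds a run of 34 bases with no partner in RNASE3, within the long run of capitals above, and 7 paired positions differ. The annotated starts lie 17 bases apart in the alignment, and with the 34 unpaired bases the RNASE3 window reaches 51 bases farther upstream.

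Levels differed more between the 10 genes than between the libraries. The serine protease family, counted with the inactive AZU1, took most of the signal: CTSG, ELANE, PRTN3 and AZU1 made up 81.5% of the summed FPKM of the 10 genes in DOX(-) and 76.2% in DOX(+), and the pair of ribonucleases 7.48% and 11.5%. The 10 genes summed to 1643 and 1399 FPKM, or 0.583% and 0.486% of all FPKM in the table. MPO and PRSS57 lay at the other end, under 1 FPKM in both libraries.

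**Figure D1:**
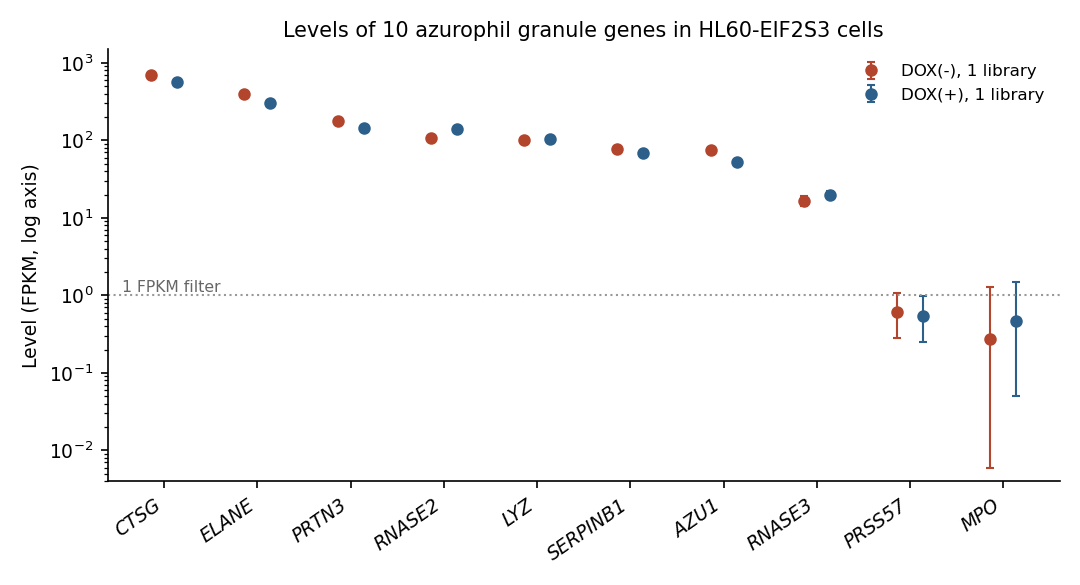
FPKM of the 10 azurophil granule genes on a log axis, with 1 point per library and bars for the 95% counting interval (fragments counted on the shortest annotated transcript, counting error only). CTSG is highest at 689.2 and 569.8 FPKM, 8 genes lie above 15 FPKM in both libraries, and PRSS57 and MPO lie below the dotted line at 1 FPKM with wide intervals.

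CTSG (ENSG00000100448, chromosome 14, 24573522 to 24576260, GRCh38) encodes cathepsin G, a protease of chymotrypsin-like and trypsin-like cleavage. It stood at 689.2 and 569.8 FPKM and ranked 20 among all protein-coding genes in both libraries. ELANE (ENSG00000197561, chromosome 19, 851014 to 856247) encodes neutrophil elastase, whose inherited variants cause neutropenia. It stood at 396.4 and 299.4 FPKM, ranking 30 and 35 among protein-coding genes. PRTN3 (ENSG00000196415, chromosome 19, 840960 to 848175) encodes proteinase 3, an autoantigen of vasculitis, and stood at 177.6 and 144.7 FPKM. AZU1 (ENSG00000172232, chromosome 19, 825097 to 832018) encodes azurocidin, an antimicrobial homologue without protease activity, and stood at 75.98 and 52.3 FPKM. All 4 were the higher of the pair in DOX(-).

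PRSS57 (ENSG00000185198, chromosome 19, 685546 to 695498) encodes neutrophil serine protease 4, which cuts after arginine. It was at 0.601 and 0.538 FPKM, about 10 fragments in each library, and AZU1 was 126-fold and 97.2-fold above it. It lies on the same chromosome arm as the other 3 but apart from them, and was the only one of the 4 chromosome 19 genes under 1 FPKM.

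MPO (ENSG00000005381, chromosome 17, 58269856 to 58280935) encodes myeloperoxidase, the best known azurophil protein and the classic stain for this lineage. It was the lowest of the 10 genes in both libraries, at 0.274 and 0.469 FPKM, against which CTSG was 2512-fold and 1215-fold higher. HL60 cells are generally known as rich in myeloperoxidase, so these values are unusual for the line, and why they were low was not tested. GENCODE release 29 lists 5 transcripts of MPO, from 260 to 3215 nucleotides. Counted on the longest, the values stood for 15 and 28 fragments, above the floor of 3 fragments (0.0563 and 0.0504 FPKM). Counted on the shortest, they stood for 1 and 2 fragments, and the upper limits of the intervals were then 1.29 and 1.5 FPKM. No other gene's annotated exon overlaps MPO, and no run of 50 bases in its transcripts is shared with another gene. Thus 8 of the 10 genes reached 1 FPKM, and MPO and PRSS57 did not. A level alone does not establish a promyelocyte granule program, and other azurophil genes, given below, were listed at 0.

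Of the genes that serve myeloperoxidase, CALR (calreticulin) was at 517.7 and 494.4 FPKM, CANX (calnexin) at 107.3 and 118.1 FPKM, and ALAS1, the first enzyme of heme synthesis, at 35.2 and 29.3 FPKM. The list of 14 chaperone and heme synthesis genes had 13 at 1 FPKM or more. The peroxidase genes next to MPO on chromosome 17, LPO and EPX (lactoperoxidase and eosinophil peroxidase), were listed at 0 in both libraries.

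LYZ (ENSG00000090382, chromosome 12, 69348341 to 69354234) encodes lysozyme, which cuts bacterial cell walls and is stored in azurophil and specific granules. It stood at 101.5 and 102.8 FPKM, the closest pair of values among the 10 genes. An antisense gene, AC020656.1, overlaps its exons and was at 0.604 and 0.541 FPKM. RNASE2 (ENSG00000169385, chromosome 14, 20955452 to 20956436) encodes eosinophil-derived neurotoxin, a ribonuclease also made in neutrophil precursors. It stood at 106.3 and 141.2 FPKM, the higher value in DOX(+). RNASE3 (ENSG00000169397, chromosome 14, 20891399 to 20892348) encodes eosinophil cationic protein and stood at 16.6 and 19.8 FPKM, again the higher value in DOX(+). SERPINB1 (ENSG00000021355, chromosome 6, 2832332 to 2842006), the inhibitor of elastase, cathepsin G and proteinase 3 that stays in the cytosol, stood at 78.2 and 67.9 FPKM.

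RNASE2 exceeded RNASE3 by 6.41-fold in DOX(-) (counting interval 5.52 to 7.48) and by 7.13-fold in DOX(+) (6.27 to 8.14). Both genes have 1 annotated transcript, of 755 and 720 nucleotides, so their fragments came out nearly whole, at 1331 and 1974 for RNASE2 and 198 and 264 for RNASE3. Their transcripts are 88.9% identical over 720 aligned bases. No run of 100 bases is shared between them, but 3.26% of the runs of 50 bases in RNASE2 and 5.37% of those in RNASE3 also occur in the other or in AL355922.1, a noncoding gene between them, which was at 2.68 and 5.13 FPKM. Fragments from such stretches can be assigned to either gene, and their part in these values was not tested. The proteases were free of this limit in CTSG, ELANE, PRTN3 and PRSS57, none of which shares a run of 31 bases with another gene, although ELANE and PRTN3 transcripts are 68.1% identical over 721 aligned bases. In AZU1 and LYZ 4.66% and 8.23% of runs of 50 bases occur in other genes, and none of 100 bases.

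The order of the levels was CTSG, ELANE, PRTN3, RNASE2, LYZ, SERPINB1, AZU1, RNASE3, PRSS57 and MPO in both libraries. Neighbours in this order whose counting intervals overlapped were RNASE2 and LYZ in DOX(-), SERPINB1 and AZU1 in DOX(-), PRTN3 and RNASE2 in DOX(+), and PRSS57 and MPO in both. PRTN3 was 1.67-fold above RNASE2 in DOX(-) and 1.02-fold above it in DOX(+). With 1 library per condition the spread of these ratios between cultures is unknown.

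Between the libraries, the 4 expressed members of the protease family and SERPINB1 were higher in DOX(-), the 2 ribonucleases were lower, and LYZ was nearly equal. Every gene that reached 1 FPKM in DOX(-), DOX(+) or both was compared as the difference of log2(FPKM + 1), and 8 of the 10 genes qualified. None of the 8 was 1.5-fold higher or 1.5-fold lower in DOX(-) by this rule. Among all 11525 genes that qualified, 3.11% were at least 1.5-fold higher and 4.06% at least 1.5-fold lower, 7.17% in all, shares at which 0 of 8 is no result about these genes. At 2-fold the shares were 0.833% and 1.2% (2.03% in all), and again 0 of the 8 passed. The median log2 difference of the 8 was 0.24, with 5 above 0 and 3 below, beside a median of -0.02 over all qualifying genes, of which 46.6% were above 0. The central 90% of all those genes ran from -0.54 to 0.47.

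**Figure D2:**
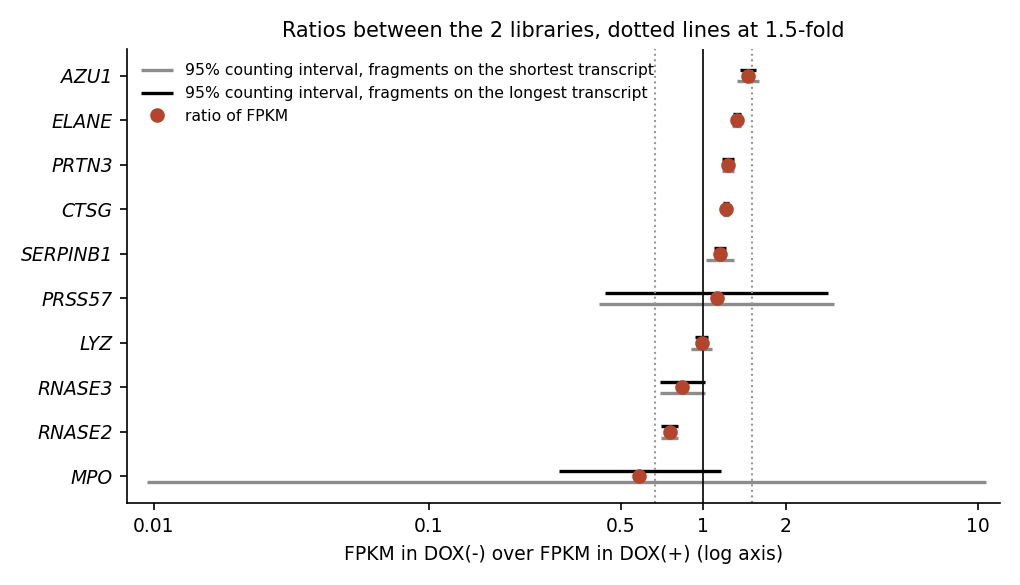
Ratio of FPKM in DOX(-) over DOX(+) on a log axis for each gene, with 95% counting intervals from fragments on the shortest and on the longest annotated transcript. AZU1, ELANE, PRTN3, CTSG and SERPINB1 lie to the right of equal levels with both intervals, RNASE2 lies to the left with both, and every point except MPO lies within 1.5-fold.

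AZU1 differed most, by a log2 difference of 0.53 and a plain ratio of 1.45 (1.33 to 1.59 on the shortest transcript), and 3.83% of all qualifying genes had a higher difference. ELANE had a log2 difference of 0.40 and a ratio of 1.32 (1.28 to 1.37), PRTN3 one of 0.29 and a ratio of 1.23 (1.17 to 1.29), and CTSG one of 0.27 and a ratio of 1.21 (1.18 to 1.24). For these 4 genes 3.83% to 12.7% of all qualifying genes had a higher difference. SERPINB1 followed at 0.20, with a ratio of 1.15 (1.02 to 1.297). These intervals left out equal levels, as counting error alone allows, and say nothing of the spread between cultures.

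RNASE2 had a log2 difference of -0.41 and a ratio of 0.753 (0.702 to 0.808), and 8.82% of all qualifying genes had a lower one. RNASE3 had a log2 difference of -0.24 and a ratio of 0.838 (0.693 to 1.01), an interval that included equal levels. LYZ had a log2 difference of -0.02 and a ratio of 0.987 (0.904 to 1.08), and its sign turned with the scaling. MPO and PRSS57 did not reach 1 FPKM. The plain ratio of MPO was 0.585, with an interval of 0.297 to 1.16 on its longest transcript and of 0.00947 to 10.7 on its shortest, and that of PRSS57 was 1.12 (0.417 to 2.99), so that a difference of these genes was not detectable at this depth. Mitochondrial genes took 22.5% and 27.7% of all FPKM. Scaled to the total without them, the differences of the 8 moved down, to 0.46 for AZU1, 0.33 for ELANE, 0.20 for CTSG and -0.48 for RNASE2.

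**Figure D3:**
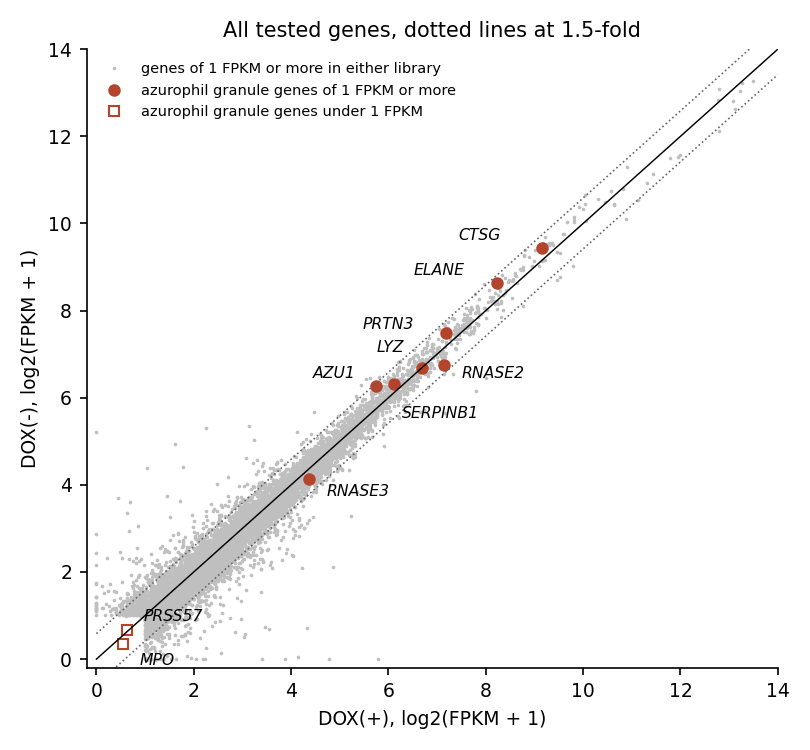
Log2(FPKM + 1) in DOX(-) against DOX(+) for the 11525 genes that reached 1 FPKM (grey), with the azurophil granule genes in red (open squares under 1 FPKM). The red points lie within the dotted 1.5-fold lines, the protease genes above the diagonal and RNASE2 and RNASE3 below it.

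Position was shared by several of the genes. AZU1, PRTN3 and ELANE stand in that order, on the same strand, within 31.2 kb of chromosome 19, with gaps of 8.94 and 2.84 kb. Their levels stood in that order too in both libraries: PRTN3 was 2.34-fold and 2.77-fold above AZU1, and ELANE 2.23-fold and 2.07-fold above PRTN3. The gene that follows, CFD, encodes complement factor D, a serine protease outside the azurophil set. It begins 3.40 kb beyond ELANE and was at 10.03 and 10.7 FPKM. PLPPR3, 3.12 kb before AZU1, was at 19.1 and 17.1 FPKM, and PTBP1, a splicing repressor, at 25.4 and 30.7 FPKM. PRSS57 lies 129.6 kb from AZU1. Its nearest gene away from the cluster, FSTL3, stood at 1.66 and 0.841 FPKM, and PALM, on the side of the cluster, was listed at 0 and 0.0268 FPKM. Of 10 qualifying neighbours in this region, none was 1.5-fold higher or lower in DOX(-), beside 7.17% of all qualifying genes. Their median log2 difference was 0.06. FSTL3, with a plain ratio of 1.97 (0.834 to 5.70), passed the rule with a pseudocount of 0.1 FPKM.

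**Figure D4:**
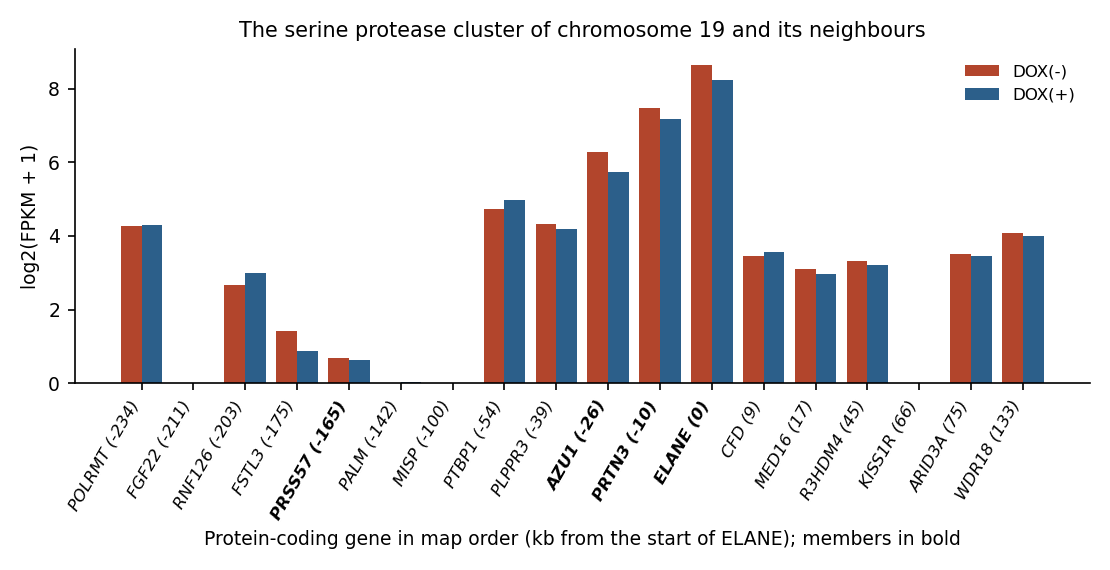
Log2(FPKM + 1) of the 18 protein-coding genes around the chromosome 19 protease genes, in map order, with the distance in kb of each gene's start from that of ELANE and the azurophil genes in bold. AZU1, PRTN3 and ELANE stand above all their neighbours in both libraries, and PRSS57 is under 1 FPKM.

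CTSG lies on chromosome 14 beside other granule protease genes. The mast cell chymase gene CMA1, 65.3 kb to one side, was at 0.829 and 0.841 FPKM, and the granzyme genes GZMH and GZMB, 30.2 and 54.7 kb to the other, were listed at 0. RNASE3 and RNASE2 lie 63.1 kb apart in a cluster of ribonuclease genes elsewhere on that chromosome. Of 11 other ribonuclease family genes there, RNASE6 alone reached 1 FPKM, at 1.31 and 1.68 FPKM. SERPINB6, which inhibits cathepsin G and neighbours SERPINB1 on chromosome 6, was at 31.3 and 26.8 FPKM, while SERPINB9, an inhibitor of granzyme B that lies between them, was listed at 0.

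Levels of other azurophil contents ranged widely. The defensin genes DEFA1, DEFA1B, DEFA3 and DEFA4 and VNN1, a pantetheinase gene, were listed at 0 in both libraries, and BPI, a protein that binds bacterial endotoxin, was listed at 0 and 0.0237 FPKM. Among lysosomal components that azurophil granules also hold, PSAP (prosaposin) was at 105.2 and 88.4 FPKM, CTSD (cathepsin D) at 82.7 and 96.6 FPKM, the cathepsin gene CTSZ at 67.1 and 67.7 FPKM and the membrane marker CD63 at 42.5 and 48.6 FPKM, while ARSA, a lysosomal sulfatase, was at 0.753 and 0.674 FPKM. Of these 29 genes, 22 qualified, 11 were above 0 and 11 below, and none was 1.5-fold higher or lower, beside 7.17% of all qualifying genes. The gene that differed most was ACPP, an acid phosphatase gene, at 3.61 and 2.35 FPKM, which passed the rule with a pseudocount of 0.1 FPKM (log2 difference 0.60). It was followed by FUCA1, of fucose removal, at 20.8 and 28.3 FPKM.

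Among genes that activate, pack and sort the proteases, SRGN, which encodes serglycin, was at 1063 and 1072 FPKM, above every one of the 10 azurophil genes. CTSC, the activating cathepsin, was at 31.1 and 31.3 FPKM. CST7 encodes cystatin F, an inhibitor of cathepsin C. It stood at 388.9 and 250.4 FPKM, a log2 difference of 0.63 and a ratio of 1.55 (1.49 to 1.62), and passed the 1.5-fold rule, though at 0.56 it did not once the totals left out mitochondrial genes. G6PC3, a phosphatase whose loss causes neutropenia, was 1.5-fold lower at 2.61 and 4.80 FPKM, with a ratio of 0.544 (0.346 to 0.858), and missed the rule with a pseudocount of 5 FPKM (log2 difference -0.36). These were 1 higher and 1 lower among 15 qualifying genes, with a median log2 difference of -0.01. Over all qualifying genes 3.11% were higher and 4.06% lower, so these counts are no result about the list.

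Of the other inhibitors, 9 of 15 qualified and none was 1.5-fold higher or lower, beside 7.17% of all qualifying genes. SERPINB2, a plasminogen activator inhibitor, was highest at 61.5 and 63.1 FPKM. CSTB, a cathepsin inhibitor, was at 10.8 and 14.3 FPKM, and RNH1, the cytosolic ribonuclease inhibitor, at 9.95 and 7.85 FPKM. SLPI, a secreted inhibitor of elastase and cathepsin G, was at 3.95 and 4.26 FPKM.

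Of 22 transcription factor genes of the promyelocyte stage, 15 reached 1 FPKM. CEBPA was highest at 151.4 and 169.6 FPKM, followed by GFI1, a repressor needed for neutrophil development, at 60.7 and 57.4 FPKM, MYB at 39.96 and 40.1 FPKM and SPI1, which encodes PU.1, at 35.5 and 29.4 FPKM. Of the 15 qualifying genes 1 was 1.5-fold higher and 1 was 1.5-fold lower, with a median of 0.02. Beside 3.11% higher and 4.06% lower over all qualifying genes, these counts are no result about the list. The higher one was IRF8, a factor of monocyte development, at 18.9 and 9.94 FPKM (ratio 1.90, 1.35 to 2.74). The lower one was RUNX1, at 2.79 and 5.04 FPKM. Its ratio of 0.553 had an interval of 0.264 to 1.22, which included equal levels, and its log2 difference was -0.37 with a pseudocount of 5 FPKM, which missed the rule. CEBPE, which drives the later specific granule genes, was at 8.93 and 12.6 FPKM (ratio 0.708, 0.597 to 0.837) and did not pass the rule.

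Most genes for contents of specific and gelatinase granules, which form after the promyelocyte stage, were under 1 FPKM. Of 23 genes 4 qualified: LRG1 (24.2 and 27.6 FPKM), CYBB and CYBA, the subunits of the oxidase cytochrome (20.3 and 25.5, and 11.2 and 12.6 FPKM), and B2M (4.97 and 5.14 FPKM), which many cell types express. LTF (lactoferrin) was at 0.215 and 0.0963 FPKM, CAMP (cathelicidin) at 0.162 and 0.145 FPKM, and LCN2 was listed at 0. All 4 had log2 differences below 0 (median -0.16) and none was 1.5-fold lower, beside 4.06% of all qualifying genes. Of the eosinophil granule genes besides the ribonucleases, PRG2 (major basic protein) was at 0.178 and 0.119 FPKM, and EPX, PRG3 and CLC were listed at 0.

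**Figure D5:**
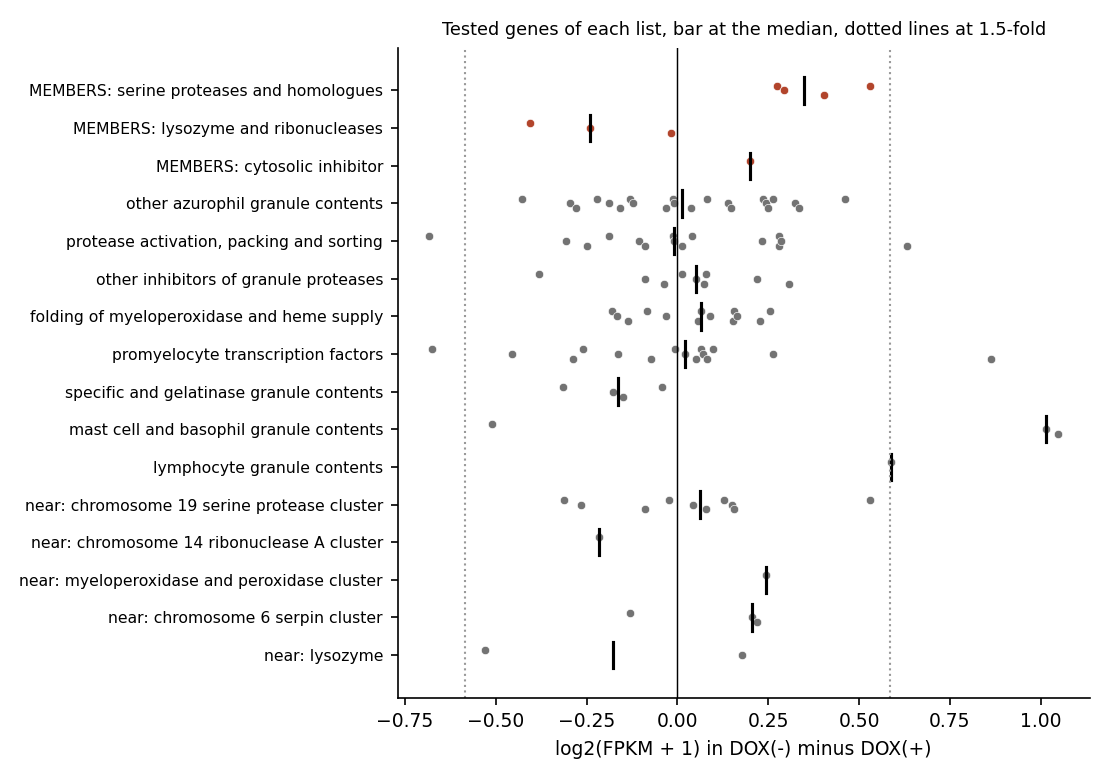
Log2(FPKM + 1) in DOX(-) minus DOX(+) for each qualifying gene, by list, with the azurophil genes in red, a bar at each list's median and dotted lines at 1.5-fold. The protease genes lie between 0.27 and 0.53 and the lysozyme and ribonuclease genes between -0.41 and -0.02, inside the dotted lines, while CST7, IRF8, TPSAB1, TPSB2 and NKG7 lie to the right of them and G6PC3 and RUNX1 to the left.

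Over the 15 lists besides the 10 azurophil genes, 97 genes qualified. Of these, 5 (5.15%) were at least 1.5-fold higher in DOX(-) and 2 (2.06%) at least 1.5-fold lower, beside the 3.11% and 4.06% of all qualifying genes, and their median log2 difference was 0.04.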

How the data were processed

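RNA from HL60-EIF2S3 cells was sequenced in 2 libraries, DOX(-) and DOX(+), 1 per condition, with an NEB Ultra kit for Illumina, per the labels' protocols. The authors deposited 1 FPKM value per gene and library, per the file headers. Builds named in the submitters' processing notes are hg38 and GRCh38, and tools named there are StringTie 1.3.4b, HISAT2 2.1.0, edgeR and CASAVA 1.8. The sources used here give neither their roles nor the strandedness and read length. FPKM shares reads among transcripts and scales to the library total, so both can move a gene's value.

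Lengths came from GENCODE release 29, where 58039 of 58302 gene identifiers were found. In genes with 1 transcript the FPKM values stepped by 1 fragment, and at the recovered totals 99.5% and 99.6% of values up to 100 fragments were whole within 0.02. Levels were compared as log2(FPKM + 1) differences in genes that reached 1 FPKM in at least 1 library, with rules of size of 1.5-fold and 2-fold. Intervals of ratios are exact conditional (Clopper-Pearson, 95%) and those of levels are exact Poisson, both on fragments of the shortest transcript unless stated. Without molecular identifiers, fragments cannot be taken for separate molecules. Calls and intervals were tested on simulated data.

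The 10 genes, the 19 lists (184 symbols, 183 found) and the motifs were chosen with earlier results of these data known, the motifs with the promoters in view. Named genes are the 10, EIF2S3, 20 fixed symbols, and in each list the 4 genes of largest difference and the 4 of highest level among those of 2 FPKM or more, given in part. CANX, DEFA1, DEFA1B, DEFA3, SERPINB9, LPO, GZMH, RNASE6, PRG3, CLC, PALM, FSTL3, VNN1, ARSA, CPA3, PRF1, GNLY and the markers FCGR3B, CXCR1, CXCR2, IL5RA, HBB, KIT, S100A8, S100A9, CSF3R and MMP9 were named after their values were seen. Alternatives covered pseudocount, filter, scaling, fold, gene type, repeated symbols and transcript length. Python 3.11.15, numpy 2.4.6, pandas 2.3.3, scipy 1.17.1 and matplotlib 3.10.9 were used.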

Additional observations from a re-analysis of the deposited data

How the results depend on the processing

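None of the azurophil granule genes that qualified passed 1.5-fold in either direction under the 10 alternative settings. The 2-fold rule, the filter at 5 FPKM, the limit to protein-coding genes and the summing of repeated symbols could not have added a call. The median log2 difference of those tested was 0.13 in place of 0.24 without a low-value filter, which adds MPO and PRSS57. The sign of LYZ turned under median-of-ratios and trimmed-mean scaling, and no other sign turned. Among the other lists, 5 genes were 1.5-fold higher and 2 lower. With a pseudocount of 0.1 FPKM these were 7 (ACPP and FSTL3 added) and 3 (FCER1A added), and with one of 5 FPKM 3 (CST7, IRF8, TPSAB1) and 0. With a filter at 5 FPKM, which leaves fewer genes, 4 were higher (without TPSB2) and 1 lower (RUNX1). With scaling without mitochondrial genes 3 were higher (IRF8, TPSAB1, TPSB2) and 3 lower (CPSF6 added), and under the 2-fold rule 2 were higher (TPSAB1, TPSB2) and 0 lower. The cause was not tested. Over all qualifying genes 0.833% were higher and 1.2% lower under the 2-fold rule. The shares of all genes that passed under the other pseudocounts, filters and scalings are not given here. These counts are therefore no result about the lists or the azurophil genes. The summed level of the 10 genes was 5827 in DOX(-) and 4863 in DOX(+) as TPM, which fixes the total by construction, and 2121 and 1935 when scaled without mitochondrial genes. On the longest transcript, as on the shortest, 6 genes had intervals free of equal levels. The share of all genes with such intervals was not computed, so this count is no result about the azurophil genes. On the shortest transcript the intervals of CEBPA, SPI1, CTSD and PSAP also left out equal levels, and those of SRGN, CALR and GFI1 included them. Intervals were not recomputed for other scalings. Scaled without mitochondrial genes, the log2 differences of ELANE and CTSG fell below their intervals. No scaling moved the median of all genes by over 0.1. No paired analysis was possible because each condition had 1 library with no replicate number, and leaving out a library leaves no comparison. Depth limits MPO and PRSS57.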

Other observations

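Granule genes of other lineages were mostly silent, with a few exceptions. Of 9 mast cell and basophil genes, 3 reached 1 FPKM. The tryptase genes TPSAB1 (7.24 and 2.98 FPKM in DOX(-) and DOX(+), ratio 2.43, interval from counting error 1.67 to 3.51) and TPSB2 (4.55 and 1.75 FPKM, ratio 2.60, 1.75 to 3.89) passed the 1.5-fold and the 2-fold rule. Scaled without mitochondrial genes, their log2 differences of 0.99 and 0.96 passed 1.5-fold and not 2-fold, and with a pseudocount of 5 FPKM TPSB2 missed 1.5-fold (0.50). They are close copies of each other, so fragments may be shared between them. FCER1A, a chain of the IgE receptor, was at 1.42 and 2.45 FPKM and was 1.5-fold lower only with a pseudocount of 0.1 FPKM, and the mast cell carboxypeptidase gene CPA3 was listed at 0 in both libraries. Of 8 lymphocyte granule genes, NKG7, a granule membrane protein of killer cells, was at 19.4 and 12.6 FPKM (ratio 1.54, 1.15 to 2.08) and passed the 1.5-fold rule, but not when scaled without mitochondrial genes (log2 difference 0.52). The other 7, among them perforin (PRF1), granulysin (GNLY) and 5 granzymes, were listed at 0.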
